A study of Rattus norvegicus with 20 samples.

Results

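Gene expression in wells of INS-1 cells titled C4BPD was compared with that in wells titled IAPP. The comparison uses 10 of the 20 arrays of the series, 5 for each title word, and they were chosen by the word in the sample title and not by any measured value. INS-1 is a rat insulinoma line that secretes insulin and stands in for pancreatic beta cells. IAPP (islet amyloid polypeptide, or amylin) is a hormone that beta cells store with insulin and that can assemble into amyloid, and C4BP (C4b-binding protein) is a plasma protein that restrains the complement cascade. By the series description, monomeric IAPP was used at 77 µM and C4BP at 0.6 µM for 10 h, and 1% DMSO, the solvent of IAPP, served as a further control. The sample fields state 300 ug/ml for each protein instead. C4BPD is not spelled out, and it was read as C4BP without IAPP because the design names 4 conditions and the title word C4BP was read as C4BP together with IAPP. Whether the C4BPD wells also held DMSO is not stated, so a difference in solvent and the difference between the proteins cannot be told apart.

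The labels limit the comparison in another way. A separate treatment field names the condition of the title in 2 of these 10 arrays and in 3 of all 20. Grouped by that field instead of the title, 0 genes passed the limma test described below. An unadjusted p under 0.05 was found for 426 genes, fewer than chance alone gives at that p, against 3308 by title. The cells were kept as 5 clones, but no label ties the title number, 1 to 5, to a clone, so p-values measure the spread between these wells. One array was made per well, and the number of arrays limits the precision. The log2 intensities of any pair of the 10 arrays correlated at 0.988 to 0.996 across probe sets, and the array medians differed by -0.0067 on the log2 scale, C4BPD minus IAPP (exact permutation test, two-sided, p = 0.722). The beta-cell hormones were bright in both groups, with mean intensities of 5783 for Ins1, 4268 for Ins2 and 11240 for Iapp in the IAPP arrays, and the beta-cell regulator Pdx1 was not analysed here. Of the marker lists for other islet, exocrine, connective and blood cells, 1 of 44 measured genes passed the test, against 5.46% of all genes. It was Gcg, the glucagon precursor, and 9 of the 44 had an unadjusted p under 0.05. Gcg was bright in both groups (9400 ± 166 in IAPP and 10135 ± 181 in C4BPD, SD, n = 5 each) and differed by 0.11 on the log2 scale (limma, adjusted p = 0.0456, lost in 9 of the 10 fits without a single array, all but that without C4BPD replicate 1, with adjusted p up to 0.115). The summed intensity of the 5 alpha-cell markers was 9792 to 10162 in the IAPP arrays and 10408 to 10912 in the C4BPD arrays, nearly all of it from Gcg, and its part in the results was not tested.

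Several signalling systems of beta cells meet in this comparison. Bone morphogenetic proteins (BMPs) and activins bind paired receptor kinases that phosphorylate SMAD proteins, and the Id genes, Smad6, Smad7 and Bambi are among the classic targets that BMP signals switch on, the last 3 as feedback inhibitors. Cyclic AMP and calcium, which rise when beta cells are stimulated by glucose and incretin hormones, act through the transcription factor CREB and its CRTC coactivators on the NR4A receptors, Sik1, Crem and phosphodiesterases. JUN, FOS and ATF3 are subunits of the AP-1 factor, which stress kinases and growth signals induce rapidly.

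Of 18166 genes tested with limma across all 4 title groups, 992 (5.46%) differed between C4BPD and IAPP at an adjusted p under 0.05. In C4BPD, 662 (3.64%) were higher and 330 (1.82%) lower. Most differences were small: their median size was 0.25 on the log2 scale, and 9 genes (0.0495%) passed the threshold with at least a 2-fold difference. These 9 were Id3, Id1, Plekhg6, Micalcl, Mir19b2, Calb1 and Nr4a1, all higher in C4BPD, and Jun and Atf3, both lower. Over all 36495 probe sets, named or not, 2.26% passed. All 5 C4BPD arrays lay above all 5 IAPP arrays in 772 genes (4.25%) and below them in 511 (2.81%). With the title number as a block, 1908 genes (10.5%) passed, 1192 (6.56%) higher and 716 (3.94%) lower, and 991 of the 992 were among them. Without IAPP replicate 2 the count was 658, and it was 483, 619, 485 and 566 without both arrays of number 2, 3, 4 or 5. In bulk RNA, fewer cells of a kind and less RNA per cell cannot be told apart.

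**Figure D1:**
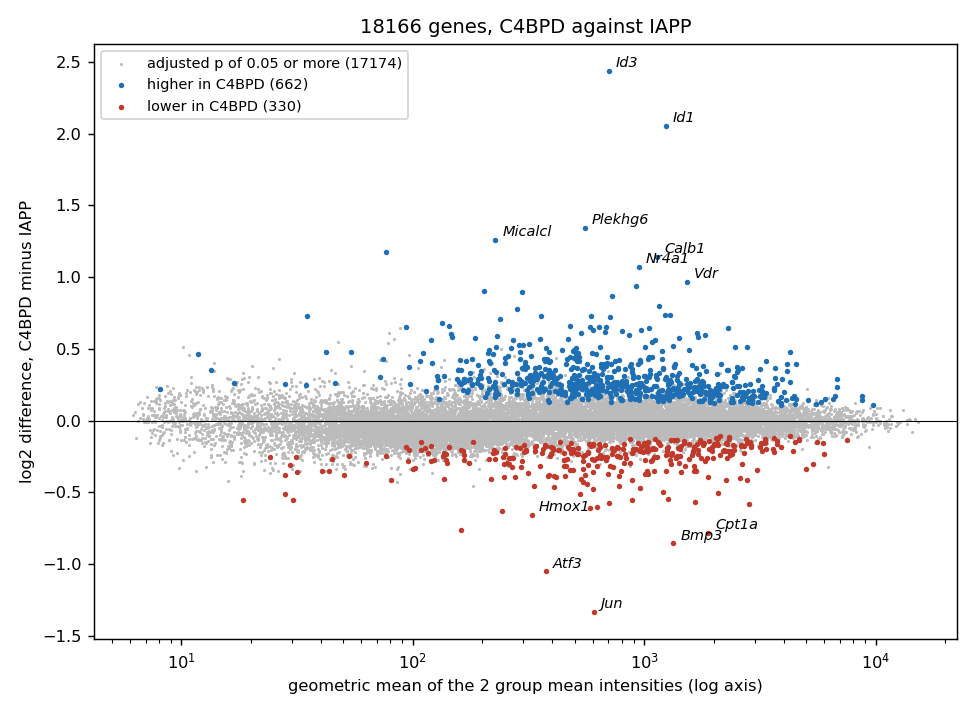
Each point is a gene, placed by the geometric mean of its intensity in the C4BPD and IAPP arrays (x, log axis) and its log2 difference, C4BPD minus IAPP (y). Blue points (662) are higher and red points (330) lower in C4BPD at an adjusted p under 0.05, grey points did not pass; Id3 and Id1 stand above all others and Jun and Atf3 below.

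Id1 and Id3 gave the widest separation of the comparison. They encode helix-loop-helix proteins without a DNA-binding region, which hold basic helix-loop-helix factors off DNA. Id1 (probe set 17767420) had intensities of 564, 602, 634, 666 and 575 in the IAPP arrays numbered 1 to 5, and of 2460, 2634, 2407, 2396 and 2727 in the C4BPD arrays. The lowest C4BPD array was far above the highest IAPP array, and the difference was 2.05 ± 0.06 (SE) on the log2 scale, or 4.15-fold (limma, adjusted p = 2.44e-15). Id3 (17803116) read 262, 284, 303, 351 and 305 in IAPP and 1324, 1792, 1424, 1831 and 1818 in C4BPD, a difference of 2.44 ± 0.13 and 5.41-fold (limma, adjusted p = 1.77e-10). The 5 C4BPD values of Id3 fell into a lower pair, numbers 1 and 3, and a higher trio, and both were clear of every IAPP value. In DMSO, which the contrast does not use, Id1 averaged 666 ± 53.4 and Id3 348 ± 66 (SD, n = 5), close to the IAPP arrays. Against DMSO, C4BPD differed by 1.92 for Id1 and 2.24 for Id3 (limma, adjusted p = 8.93e-15 and 5.61e-10), and IAPP by -0.13 and -0.19 (adjusted p = 0.333 and 0.641). These contrasts share the DMSO arrays with each other and the treated arrays with the main comparison. Over all genes, 351 (1.93%) passed for C4BPD against DMSO and 614 (3.38%) for IAPP against DMSO.

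The other members of the Id family did not follow one pattern. Id4 read 1219 to 1470 in IAPP and 1830 to 2246 in C4BPD, again without overlap, and differed by 0.61 ± 0.08 (limma, adjusted p = 3.26e-05). In Id4 the IAPP arrays were also lower than DMSO by 0.32 on the log2 scale (limma, adjusted p = 0.0234), and C4BPD against DMSO gave 0.29 with an adjusted p of 0.0571. Id2 averaged 135 ± 6.46 in IAPP and 138 ± 4.17 in C4BPD, below the median intensity of the arrays, and its difference of 0.02 had a 95% interval of -0.06 to 0.10. In all, 3 of the 4 Id genes were higher in C4BPD and none lower, against 3.64% and 1.82% of all genes. The list median was 1.33, against -0.01 over all genes.

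**Figure D2:**
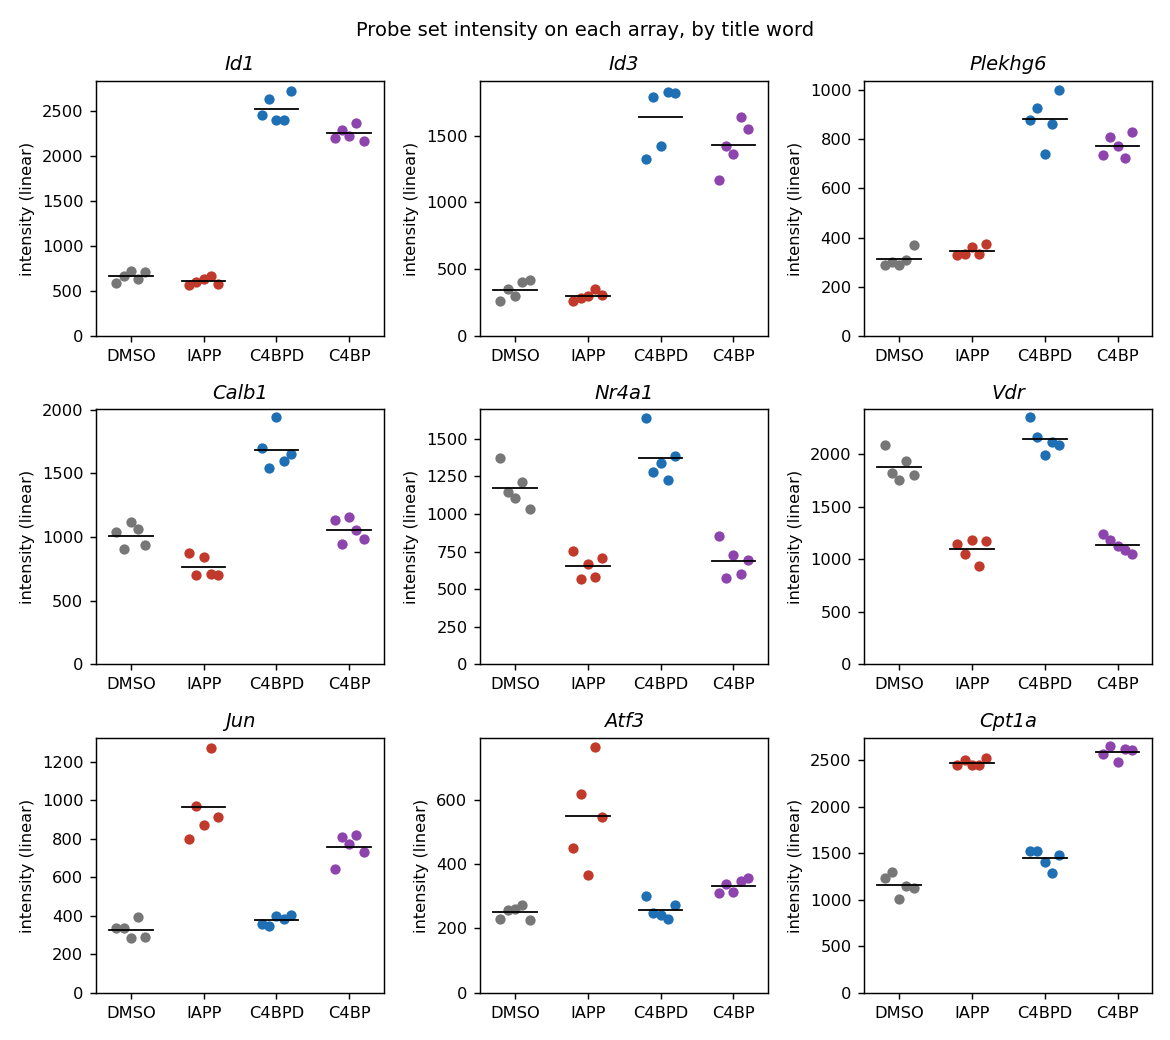
Intensity (linear axis from 0) of 9 genes on each array, grouped by title word, with numbers 1 to 5 from left to right within a group; the line is the group mean of 5 arrays. Id1, Id3 and Plekhg6 are high in both title groups read as holding C4BP, and Nr4a1 and Vdr are low in IAPP and C4BP. Jun, Atf3 and Cpt1a are high in IAPP, and Jun and Cpt1a are also high in C4BP.

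Feedback inhibitors and a receptor of the BMP and activin pathway stood with the Id genes. Of 37 measured genes of that list, 6 were higher in C4BPD and 2 lower, against 3.64% and 1.82% of all genes, and the list median was -0.01, the same as over all genes. Leaving out both arrays of a number left 7, 5, 5, 4 and 5 calls for numbers 1 to 5, and leaving out 1 array left 5 to 7. Acvr1c, the type I activin receptor ALK7, read 477, 532, 555, 521 and 604 in IAPP and 811, 1049, 962, 1005 and 1092 in C4BPD, a difference of 0.87 ± 0.07 (limma, adjusted p = 2.23e-07). Smad9, a receptor-regulated SMAD of the BMP branch, averaged 957 ± 39.3 in IAPP and 1595 ± 83.7 in C4BPD (0.74 ± 0.05, adjusted p = 8.87e-09 by limma). Bambi, a decoy receptor without a kinase, read 456 to 520 in IAPP and 675 to 798 in C4BPD. Its difference was 0.63 ± 0.05 (limma, adjusted p = 2.53e-08). Smad7, an inhibitory SMAD, was dim (105 ± 5.69 in IAPP and 169 ± 16.7 in C4BPD) and differed by 0.68 ± 0.07, with all 5 C4BPD arrays above all IAPP arrays. In each of these 4 genes the DMSO mean lay near the IAPP mean: IAPP minus DMSO was -0.19 for Acvr1c, -0.15 for Smad9, -0.02 for Bambi and 0.08 for Smad7, with adjusted p of 0.258, 0.161, 0.97 and 0.779 in limma.

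The remaining members of the pathway differed little. Smad6, the other inhibitory SMAD, and Atoh8, a helix-loop-helix factor, were higher by 0.18 and 0.29, and Tgif1, a SMAD corepressor, and Gdf15, a secreted stress-induced family member, were lower by 0.19 and 0.37 (limma, adjusted p of 0.0336, 0.0349, 0.0238 and 0.0178). Each of these 4 calls was lost without some single arrays, where the adjusted p reached 0.0839 for Smad6, 0.0936 for Atoh8, 0.0646 for Tgif1 and 0.0551 for Gdf15. The single arrays were C4BPD 1, 2, 3 and 5 and IAPP 2, 4 and 5 for Smad6, C4BPD 1, 2, 3 and 5 and IAPP 3 and 5 for Atoh8, C4BPD 1, 3 and 4 and IAPP 1, 2 and 4 for Tgif1, and C4BPD 2 and IAPP 2 and 4 for Gdf15. Smad1, another BMP-branch SMAD, gave a difference of 0.06, the BMP receptor Bmpr1a gave 0.07, and Hamp, the hepcidin gene that BMP signals induce in liver, gave -0.05, none past the threshold. Bmp3, a BMP family member that antagonises the others, is outside the list and went the opposite way to the Id genes. It read 1916, 1853, 1837, 1683 and 1683 in IAPP and 1064, 930, 1058, 892 and 1027 in C4BPD, a difference of -0.85 ± 0.07 (limma, adjusted p = 3.72e-08). Its DMSO mean of 1329 ± 133 lay between the others, with C4BPD minus DMSO at -0.42 and IAPP minus DMSO at 0.44 (adjusted p = 0.00086 and 0.000372 by limma).

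The stretches just upstream of Id1, Id3 and Bambi are shown because these genes moved together and the GC-rich element GGCGCC is a core that SMADs of the BMP branch recognise. They are the 250 bases before each gene's start in RefSeq (GRCr8), written in the direction of transcription, with GGCGCC in capitals. The element was searched as GGCGCC on both strands, where it reads the same, and it overlapped no other printed motif. Id1 is at chr3:161671314-161671563 on the plus strand, Id3 at chr5:153656041-153656290 on the plus strand, and Bambi at chr17:58821004-58821253 on the minus strand.
Id1: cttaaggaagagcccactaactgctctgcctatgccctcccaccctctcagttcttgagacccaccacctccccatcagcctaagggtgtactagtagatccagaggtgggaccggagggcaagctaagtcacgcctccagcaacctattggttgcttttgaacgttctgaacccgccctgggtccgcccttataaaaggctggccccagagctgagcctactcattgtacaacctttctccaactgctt
Id3: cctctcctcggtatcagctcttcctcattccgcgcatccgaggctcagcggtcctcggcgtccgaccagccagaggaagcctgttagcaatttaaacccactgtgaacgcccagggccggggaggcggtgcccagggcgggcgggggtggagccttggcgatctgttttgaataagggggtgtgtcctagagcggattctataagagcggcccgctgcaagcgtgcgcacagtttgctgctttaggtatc
Bambi: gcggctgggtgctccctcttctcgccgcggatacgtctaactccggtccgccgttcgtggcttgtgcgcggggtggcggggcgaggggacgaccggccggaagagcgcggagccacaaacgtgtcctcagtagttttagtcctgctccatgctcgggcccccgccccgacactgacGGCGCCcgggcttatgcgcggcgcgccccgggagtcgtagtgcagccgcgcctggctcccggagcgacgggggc

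Bambi holds 1 copy in this window, and Id1 and Id3 hold none, which says only that these letters are not in this stretch. Of all 27457 promoters, 9.24% hold GGCGCC in the same 250 bases, and of those of the genes tested, 13.1%. It was found in 97 of the 531 promoters of genes higher in C4BPD (18.3%) and in 50 of the 279 of genes lower in C4BPD (17.9%). The shares of the higher and the lower genes were close to each other.

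The second large group was the NR4A receptors and targets of cyclic AMP and CREB. Of 19 measured genes, 14 were higher in C4BPD and none lower, against 3.64% of all genes higher. Of the 19 differences 18 were positive, with a median of 0.30, against 7964 positive of the 18166 over all genes. The list was chosen with earlier results of these data known, so these counts are a description. With the title number as a block 14 were higher and 1, Crtc2, lower (adjusted p = 0.0327 in limma), against 6.56% and 3.94% of all genes. Over all fits that left out an array or a number 12 to 14 passed. The list median was 0.02 for C4BPD against DMSO and -0.31 for IAPP against DMSO. Sik1, Gem, Crem, Irs2, Pde10a, Rgs2, Ppargc1a and the 5 members of this list that did not pass, Smad6, Atoh8, Tgif1, Gdf15, Smad1, Bmpr1a and Hamp above, and Gipr, Klf9, Myc, Chac1, Slc30a1, Slc1a4, Kcnj11, Ccnd2, Acadl and Chrm4 below lie outside the naming rule and were picked after their values were seen.

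Nr4a1 (Nur77, probe set 17832476), an orphan nuclear receptor and immediate early gene, read 751, 568, 664, 579 and 710 in IAPP and 1641, 1279, 1337, 1225 and 1388 in C4BPD. The groups were far apart, and the difference was 1.07 ± 0.11, or 2.1-fold (limma, adjusted p = 1.55e-06). In the DMSO arrays it read 1374, 1146, 1108, 1210 and 1033, which overlaps C4BPD and not IAPP. IAPP minus DMSO was -0.85 (limma, adjusted p = 5.38e-05) and C4BPD minus DMSO 0.23 (adjusted p = 0.402). C4BPD was above DMSO in every pair of the same number, and this difference was not examined with the title number as a block. Nr4a2 (Nurr1) averaged 1002 ± 48.7 in IAPP, 1429 ± 96.9 in DMSO and 1672 ± 100 in C4BPD (SD, n = 5 each), and C4BPD exceeded IAPP by 0.74 ± 0.05 (limma, adjusted p = 8.87e-09). Here C4BPD was also higher than DMSO, by 0.23 (adjusted p = 0.0185), and IAPP lower than DMSO by 0.51 (adjusted p = 2.14e-06). Nr4a3 (Nor1) averaged 247 ± 9.49 in IAPP and 344 ± 12.1 in C4BPD, a difference of 0.48 ± 0.05, with DMSO at 325 ± 27.5. All 3 receptors therefore had IAPP as the lowest of these 3 groups.

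Enzymes and regulators of the same list had a like order. Pde7b, a phosphodiesterase that breaks down cyclic AMP, read 577, 545, 588, 490 and 559 in IAPP, 950, 895, 909, 879 and 921 in C4BPD and 978, 871, 907, 913 and 912 in DMSO. C4BPD and DMSO overlapped throughout, IAPP stood apart, and C4BPD minus IAPP was 0.73 ± 0.05 (limma, adjusted p = 5.61e-09). Dio2, the deiodinase that makes active thyroid hormone, averaged 218 ± 14.6 in IAPP, 406 ± 25.6 in C4BPD and 355 ± 29.6 in DMSO, and differed by 0.90 ± 0.06. Sik1, a kinase that inhibits the CRTC coactivators and is itself induced by CREB, read 378 to 485 in IAPP, 546 to 665 in C4BPD and 602 to 765 in DMSO (0.49 ± 0.08, adjusted p = 0.000905 by limma). Crem, which encodes CREB-like activators and repressors, averaged 680 ± 44.3 in IAPP, 870 ± 39.2 in C4BPD and 866 ± 41.6 in DMSO. The clock gene Per1 averaged 784 ± 64.8 in IAPP and 1004 ± 22.9 in C4BPD, and its difference was 0.36 ± 0.06. Gem, a small GTPase that restrains calcium channels, and Irs2, an adaptor of the insulin receptor, were higher by 0.40 and 0.28. Nfil3, a repressor of the clock, and Pde10a, another phosphodiesterase, were higher by 0.30 and 0.26, the latter call being lost without number 5 (adjusted p = 0.0548 in limma). Of the 5 members that did not pass, Pde4b gave 0.15, Pde4d 0.12, Areg 0.05, Creb1 0.02 and the coactivator Crtc2 -0.14. The calls of Rgs2 (adjusted p = 0.0224) and Ppargc1a (adjusted p = 0.0464), both by limma, were lost in some single-array fits, with adjusted p up to 0.0696 and 0.129. Those fits left out C4BPD 1 or 3 or IAPP 1, 2, 3 or 4 for Rgs2, and C4BPD 1, 3 or 5 or any 1 IAPP array for Ppargc1a.

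The promoters of Nr4a1 and Sik1 are shown because CREB acts on both through cyclic AMP response elements, whose short core is CGTCA. This motif was added after the Nr4a1 promoter had been read. It was searched on both strands as CGTCA, it is part of the longer core ACGTCA, and copies are in capitals in the 250 bases before each start (RefSeq, GRCr8). Nr4a1 is at chr7:134259888-134260137 on the plus strand and Sik1 at chr20:9958647-9958896 on the minus strand.
Nr4a1: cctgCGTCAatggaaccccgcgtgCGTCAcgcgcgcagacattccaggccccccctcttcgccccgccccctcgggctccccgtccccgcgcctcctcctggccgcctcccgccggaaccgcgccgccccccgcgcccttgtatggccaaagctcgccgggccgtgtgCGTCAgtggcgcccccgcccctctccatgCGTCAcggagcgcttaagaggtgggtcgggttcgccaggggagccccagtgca
Sik1: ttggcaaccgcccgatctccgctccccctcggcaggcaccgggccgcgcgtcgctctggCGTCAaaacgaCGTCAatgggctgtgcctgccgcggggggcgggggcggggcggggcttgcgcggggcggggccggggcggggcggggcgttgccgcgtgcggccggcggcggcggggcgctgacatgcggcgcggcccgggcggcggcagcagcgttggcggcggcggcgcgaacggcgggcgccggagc

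Nr4a1 holds 4 copies and Sik1 holds 2. At least 1 copy occurs in 19% of the 27457 promoters and in 22.4% of those of the genes tested. Of the 10 members of the list past the threshold that have a promoter in the table, 8 hold at least 1 copy. The longer core ACGTCA is in 4 of the 10 and in 7.25% of all promoters, with 0 copies in Nr4a1 and 1 in Sik1. The short core was chosen after reading Nr4a1 and the members were chosen as CREB targets, so these counts describe the sequences and support nothing.

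**Figure D3:**
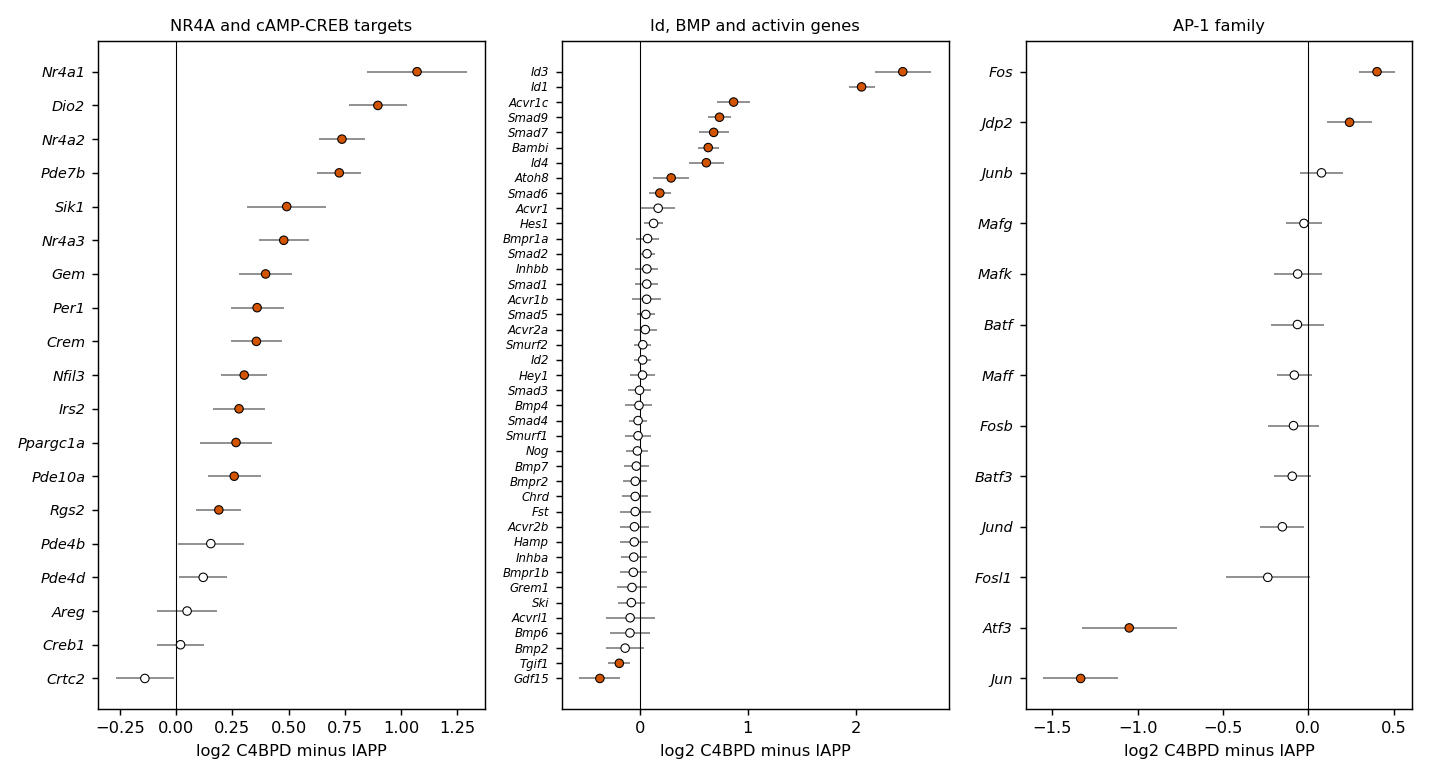
Log2 difference C4BPD minus IAPP (points) with its 95% interval (lines) for every measured gene of 3 lists, the Id genes drawn with the BMP and activin genes. Filled points passed an adjusted p of 0.05: 14 of 19 NR4A and cyclic AMP targets lie to the right of 0, and in the AP-1 family Jun and Atf3 lie far to the left.

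AP-1 genes moved in opposite directions. Of 13 measured members, 2 were higher and 2 lower in C4BPD, against 3.64% and 1.82% of all genes. Jun (probe set 17808683) read 798, 968, 871, 1273 and 912 in IAPP and 358, 348, 397, 383 and 405 in C4BPD, a difference of -1.33 ± 0.11, so that IAPP was 2.52-fold above C4BPD (limma, adjusted p = 5.34e-08). DMSO overlapped C4BPD, at 284 to 394. Atf3, a repressor induced by many stresses, read 450, 617, 365, 764 and 545 in IAPP and 300, 247, 240, 230 and 271 in C4BPD (-1.05 ± 0.13, adjusted p = 3.26e-05 by limma). Its IAPP arrays were spread over a wide range, and the lowest was still above the highest C4BPD array. For both genes IAPP exceeded DMSO, by 1.55 and 1.09 (limma, adjusted p = 1.23e-08 and 3.57e-05), and C4BPD minus DMSO was 0.21 and 0.04. Fos, the partner of JUN, had the other sign: it read 211 to 221 in IAPP, 270 to 323 in C4BPD and 276 to 305 in DMSO, a difference of 0.40 ± 0.05 (limma, adjusted p = 2.76e-05). Jdp2, a repressor that dimerises with JUN, was higher by 0.24 (limma, adjusted p = 0.0265), a call lost without C4BPD array 3 or 5 or IAPP array 4 or 5, where the adjusted p reached 0.0837. Junb gave 0.08 and Jund -0.15, neither past the threshold.

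Several stress genes were lower in C4BPD than in IAPP. Hmox1, the inducible heme oxygenase, read 391, 445, 353, 441 and 421 in IAPP and 253, 267, 246, 251 and 282 in C4BPD, a difference of -0.66 ± 0.07 (limma, adjusted p = 2.08e-06), with DMSO at 237 to 252. It was 1 of 3 members of the NRF2 antioxidant list that were lower among 20 measured, none being higher, against 1.82% and 3.64% of all genes. The others were Srxn1, which repairs peroxiredoxins (-0.27), and Osgin1, an oxidative stress gene (-0.40). With the title number as a block 3 members were lower and 1 was higher, against 3.94% and 6.56% of all genes. Ddit3 (CHOP), a transcription factor of the integrated stress response, read 798 to 1017 in IAPP and 618 to 763 in C4BPD, a difference of -0.45 ± 0.08 (limma, adjusted p = 0.00084). Trib3, a pseudokinase induced by CHOP and ATF4, differed by -0.44 ± 0.12, and its call (limma, adjusted p = 0.0312) was lost in 6 of the 10 fits without a single array (without C4BPD or IAPP 2, 4 or 5), with adjusted p up to 0.0833, and in the fit of the compared arrays alone (0.125). These were the 2 calls among 24 ATF4 and CHOP targets (8.33%), against 5.46% of all genes. With the title number as a block 5 of the 24 passed, 1 higher and 4 lower, against 10.5% of all genes. Hrk, a BH3-only activator of cell death, averaged 464 ± 35.4 in IAPP and 355 ± 25.2 in C4BPD (-0.38 ± 0.06, adjusted p = 0.00065 by limma). It was the only call among 22 genes of the BCL2 family and cell death (4.55%), against 5.46% of all genes.

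Of 14 metallothionein and zinc transport genes, 1 was lower in C4BPD than in IAPP, against 1.82% of all genes. With the title number as a block 2 were lower, against 3.94%. Metallothioneins bind zinc and copper, and of the 5 measured, Mt1 and Mt1f were above DMSO in both groups, whereas Mt2A, Mt3 and Mt4 passed in none of the contrasts. Mt1 read 1957 to 3159 in DMSO, 6725 to 7635 in IAPP and 5384 to 5976 in C4BPD. C4BPD minus IAPP was -0.32 ± 0.10 for Mt1, with an adjusted p of 0.0696 in limma and 0.0463 with the title number as a block. Mt1f read 1002 to 1418 in DMSO, 3050 to 3330 in IAPP and 2196 to 2588 in C4BPD, and the same difference was -0.42 ± 0.08 (limma, adjusted p = 0.00184). Mt2A gave -0.11, Mt3 0.02 and Mt4 -0.15, C4BPD minus IAPP, and -0.02, -0.01 and -0.03 against DMSO. Mt1 and Mt1f are close relatives, and signal shared between their probes was not tested. Slc30a1, a zinc exporter driven by the same metal sensor, averaged 457 ± 70.2 in DMSO, 696 ± 19.2 in IAPP and 723 ± 48.3 in C4BPD. C4BPD exceeded DMSO by 1.15 for Mt1, 1.00 for Mt1f and 0.67 for Slc30a1, and IAPP exceeded it by 1.48, 1.42 and 0.62, all past the threshold in limma.

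Chac1 and Slc1a4 were above DMSO in both groups and did not pass between them. Chac1, a glutathione-degrading target of ATF4, read 596 to 730 in IAPP, 654 to 931 in C4BPD and 292 to 398 in DMSO. Slc1a4, an amino acid transporter, averaged 1325 ± 56.3 in IAPP, 1388 ± 124 in C4BPD and 806 ± 63.8 in DMSO. Their differences, C4BPD minus IAPP, were 0.17 and 0.06, with 95% intervals of -0.01 to 0.34 and -0.07 to 0.20. Both groups exceeded DMSO in both genes (limma, adjusted p at most 8.09e-07).

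Tfrc and Slc11a2, genes of iron uptake, were lower in C4BPD than in both IAPP and DMSO. Tfrc, the transferrin receptor, read 5486, 5756, 5544, 5647 and 5555 in IAPP, 4290, 4543, 4637, 4281 and 4410 in C4BPD and 5608 to 6063 in DMSO. It was lower in C4BPD than in IAPP by 0.34 (limma, adjusted p = 2.19e-06) and lower than in DMSO by 0.41 (adjusted p = 3.53e-07), and IAPP minus DMSO was -0.07. Slc11a2 (DMT1), the divalent metal transporter, was lower than in IAPP by 0.26 and than in DMSO by 0.17. P4ha1, a collagen prolyl hydroxylase that needs iron and is induced by hypoxia, averaged 2022 ± 222 in IAPP, 1899 ± 192 in DMSO and 1366 ± 161 in C4BPD, a difference from IAPP of -0.57 ± 0.09 (limma, adjusted p = 0.000646). Ankrd37, a target of hypoxia-inducible factor, differed by -0.46 from IAPP and by -0.65 from DMSO. Of 16 iron genes 1 was higher and 2 lower, against 3.64% and 1.82% of all genes. The higher one was Hfe (0.29, limma adjusted p = 0.0413, lost in 9 of the 10 single-array fits). Of 24 hypoxia and glycolysis genes 1 was higher and 4 lower, or 3 in all without number 2, 4 or 5. Here the higher one was Ndrg1 (0.15, limma adjusted p = 0.00851, lost without number 2 or 4). With the title number as a block the iron list had 1 higher and 3 lower and the hypoxia and glycolysis list 2 higher and 6 lower. The shares of all genes were then 6.56% and 3.94%.

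A minority of the transcripts of fatty acid oxidation were lower in C4BPD. Of 30 genes of this list, 5 were lower, none was higher and 25 did not pass, against 1.82% of all genes lower, and the list median was -0.06. In the same list with the title number as a block 7 were lower and 1 higher, against 3.94% and 6.56% of all genes. Cpt1a, which commits long-chain fatty acids to entry into mitochondria, read 2449, 2505, 2450, 2450 and 2528 in IAPP and 1521, 1521, 1409, 1290 and 1484 in C4BPD. The IAPP arrays were almost identical, C4BPD was 0.78 ± 0.06 lower on the log2 scale (limma, adjusted p = 1.6e-08), and DMSO lay below both at 1165 ± 112. Cpt1a in C4BPD was higher than in DMSO by 0.31 (adjusted p = 0.00334 by limma). Fabp3, a fatty acid carrier, read 1051 to 1098 in IAPP and 668 to 845 in C4BPD, and Slc25a20, the carnitine-acylcarnitine carrier, read 1348 to 1446 and 1063 to 1181. Their differences were -0.55 ± 0.07 and -0.35 ± 0.04 (limma, adjusted p = 3.26e-05 and 3.4e-05). Acaa2, a thiolase of the pathway, was lower by 0.34 with 1 IAPP array (2925) within the C4BPD range of 2510 to 2958, and its adjusted p of 0.00975 became up to 0.067 without number 2, 4 or 5. Acadl, the long-chain acyl-CoA dehydrogenase, gave -0.25 ± 0.07 (limma, adjusted p = 0.0319). That call was lost without C4BPD array 2, 4 or 5 or IAPP array 1, 2 or 3, where the adjusted p reached 0.0935, and without number 2 the list had 3 calls in all.

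Several receptors of beta-cell signals were higher in C4BPD. Of 21 hormone and transmitter receptors, 5 were higher and 1 lower, against 3.64% and 1.82% of all genes, and with the title number as a block 8 and 3, against 6.56% and 3.94%. Vdr, the vitamin D receptor, read 1144, 1047, 1181, 936 and 1176 in IAPP, 2355, 2161, 1992, 2114 and 2086 in C4BPD and 1759 to 2091 in DMSO. C4BPD was 1.96-fold above IAPP, or 0.97 ± 0.07 on the log2 scale (limma, adjusted p = 8.87e-09). The IAPP arrays all lay below the DMSO arrays (-0.78, limma, adjusted p = 5.4e-07). The C4BPD arrays overlapped DMSO, with some above its range. Calb1 (calbindin D28k), a calcium buffer and in some tissues a vitamin D target, read 703 to 874 in IAPP, 907 to 1116 in DMSO and 1544 to 1940 in C4BPD. Its 3 groups did not overlap, with C4BPD 1.14 ± 0.08 above IAPP (limma, adjusted p = 9.01e-09) and 0.74 above DMSO. Gipr, the receptor of the incretin GIP, read 1647, 1844, 2195, 2263 and 2371 in IAPP and 2518, 3043, 2775, 3175 and 3118 in C4BPD, a difference of 0.51 ± 0.11 (limma, adjusted p = 0.00463, and 0.0702 without number 2). Brs3, an orphan receptor of the bombesin family, differed by 0.73 ± 0.06, the somatostatin receptor Sstr1 by 0.47 ± 0.08 and the purine receptor P2ry1 by 0.40 ± 0.08. Chrm4, an inhibitory muscarinic receptor, was the 1 lower gene, at 501 to 601 in IAPP and 346 to 489 in C4BPD, a difference of -0.34 ± 0.09 (limma, adjusted p = 0.035). That call was lost without C4BPD array 1, 3 or 5 or IAPP array 2, 4 or 5, where the adjusted p reached 0.105.

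Insulin and granule genes differed little in size between the groups, but nearly all in the same direction. Ins1 averaged 5783 ± 273 in IAPP and 6088 ± 697 in C4BPD, Ins2 4268 ± 284 and 4673 ± 908, and Iapp 11240 ± 568 and 11854 ± 263 (SD, n = 5 each). None of these passed the test, and the 95% intervals of the log2 differences were -0.09 to 0.23 for Ins1, -0.09 to 0.31 for Ins2 and -0.02 to 0.17 for Iapp. The spread of the C4BPD values of Ins1 and Ins2 came largely from number 1, at 7290 and 6226. Of 24 granule genes, 22 had a positive difference, against 7964 of the 18166 over all genes. Past the threshold were 3, all higher, against 3.64% of all genes: Snap25, a SNARE of exocytosis (0.17), and the granule-docking proteins Cadps (0.21) and Sytl4 (0.31). The calls of Cadps and Sytl4 were each lost in 6 of the 10 single-array fits, with limma adjusted p up to 0.0812 and 0.0853, and that of Snap25 held in these fits and was lost without number 2, 4 or 5. For Cadps these left out C4BPD 1, 3 or 5 or IAPP 2, 4 or 5, and for Sytl4 C4BPD 1, 2 or 3 or IAPP 2, 4 or 5. With the title number as a block 5 of the 24 were higher, against 6.56% of all genes, and without number 2, 4 or 5 none passed. Txnip, which beta cells induce strongly in high glucose, averaged 3389 ± 273 in IAPP and 3000 ± 261 in C4BPD (-0.18, 95% interval -0.36 to 0.00), and its relative Arrdc4 was higher by 0.29 ± 0.05 (limma, adjusted p = 0.000421).

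Complement genes and most amylin receptor genes did not pass the test. The complement list had 0 calls among 22 genes in limma (2 at an unadjusted p under 0.05), against 5.46% of all genes. Of its differences 3 were positive and 19 negative, with a median of -0.05, against 7964 positive and 10202 negative over all genes. With the title number as a block 1 was lower, against 3.94% of all genes: Cd55, which shields cells from complement (-0.13, adjusted p = 0.0136 in limma with the block). C4bpa gave -0.07 and C4bpb 0.05, both below the median intensity of the arrays. In the amylin receptor list Ramp2, an accessory subunit, was higher by 0.27 (limma, adjusted p = 0.00991), a call lost without number 2, 3 or 4. Calcr, the calcitonin receptor that forms the receptor core, was dim, at 66.6 ± 5.84 in IAPP and 68.7 ± 7.19 in C4BPD. Ide, a protease that degrades insulin and IAPP, read 5882 to 6175 in IAPP and 5175 to 5716 in C4BPD (-0.12, adjusted p = 0.0682 in limma and 0.0237 with the block).

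**Figure D4:**
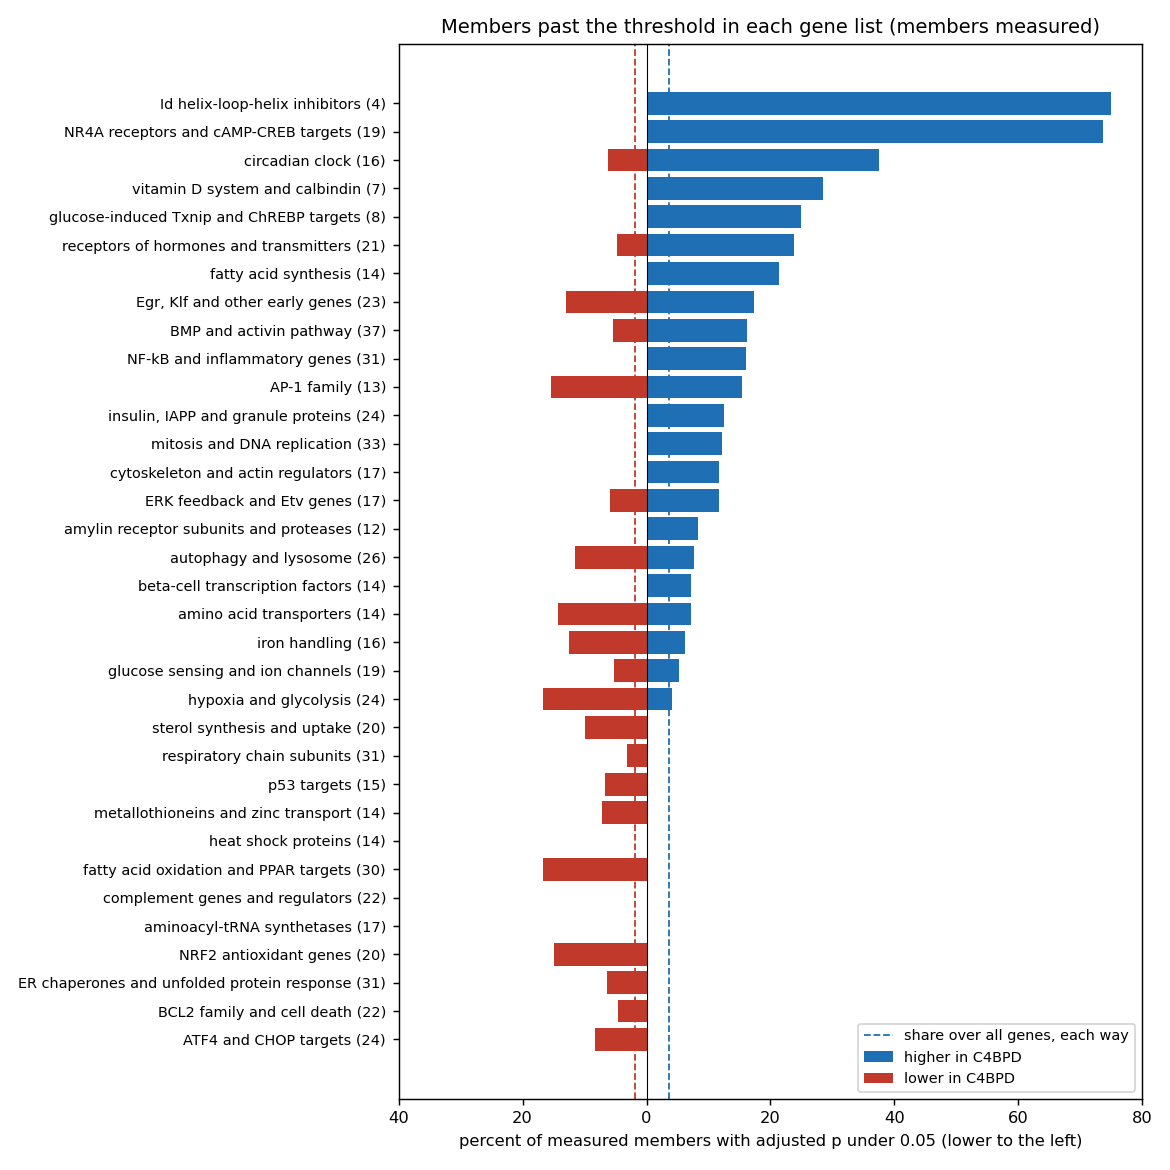
Percent of the measured members of each of 34 gene lists that passed an adjusted p of 0.05, higher in C4BPD to the right and lower to the left; the number of measured members is in brackets and dashed lines mark 3.64% and 1.82% of all genes. The Id list (3 of 4) and the NR4A and cyclic AMP list (14 of 19) have the longest bars.

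Over the 39 lists, 708 different genes were measured and 109 passed the threshold, against 5.46% of all genes, or 165 with the title number as a block, against 10.5%, and 66 without number 2 or without number 4. The lists were chosen with earlier results of these data known, so this count is a description. Among signalling genes, Dusp6, a phosphatase induced by ERK, was higher by 0.46 ± 0.08 and Dusp8, a phosphatase of stress kinases, lower by 0.41 ± 0.05. Dusp8 read 2550 to 2674 in IAPP and 1891 to 2179 in C4BPD. Phlda1, an early gene of growth signals, was higher by 0.63 ± 0.05, and Klf11, a glucose-responsive factor, lower by 0.43 ± 0.05. Klf9 (0.34) was higher and Myc (-0.25) lower, and the call of Myc was lost without number 3 or 5, with a limma adjusted p of up to 0.0776. The clock list had 6 of 16 genes higher and 1 lower, against 3.64% and 1.82% of all genes. With the title number as a block it had 7 and 2, against 6.56% and 3.94%. Without the block, 2 to 4 in all passed when both arrays of a number were left out. F3, tissue factor, read 1612 to 1996 in IAPP, 2773 to 3081 in C4BPD and 2533 to 3087 in DMSO, a difference of 0.65 ± 0.06 (limma, adjusted p = 1.08e-06). Wipi1, an early autophagy protein, was higher by 0.50 ± 0.04. Aminoacyl-tRNA synthetases (17 genes) and heat shock proteins (14 genes) had 0 calls in limma, against 5.46% of all genes. At an unadjusted p under 0.05 they had 1 and 2 genes. With the block the heat shock list had 1 call, against 10.5% of all genes: Bag3, a co-chaperone (0.15, adjusted p = 0.0243 in limma).

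Some genes varied with the title number in both groups. Ccnd2, the D-type cyclin of beta-cell growth, read 2154, 1694, 2165, 1706 and 1705 in IAPP and 2772, 2150, 2893, 2050 and 2069 in C4BPD. Numbers 1 and 3 were high in both groups, the groups overlapped, and C4BPD was above IAPP in 5 of 5 pairs. The difference of 0.33 ± 0.11 had an adjusted p of 0.0982 in limma and of 1.19e-05 with the block. Kcnj11, the pore of the KATP channel that couples glucose to insulin release, differed by 0.27 ± 0.08, with adjusted p of 0.0612 and 0.000289. Adarb2, an RNA-editing enzyme homologue, was 0.94 ± 0.14 higher in C4BPD and also varied with the number, from 552 to 827 in IAPP and from 1023 to 1562 in C4BPD. On the mitosis list, 4 of 33 genes were higher without the block and 10 with it, against 3.64% and 6.56% of all genes. None was lower in either fit. Without number 2 the count of higher genes was 0 and without number 4 it was 1.

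The DMSO arrays show where the solvent control lay in the genes that separated the groups. Among the 662 genes higher in C4BPD, the DMSO mean was nearer to C4BPD in 53.9% and nearer to IAPP in 46.1%, and among the 330 lower genes it was nearer to C4BPD in 62.4%. Over the fits that left out an array or a number, the first share ran from 47.4% to 59.9% and the second from 53% to 67.5%. The arrays titled C4BP, read as C4BP with IAPP, were nearer to IAPP in 620 of the 992 genes (62.5%). These shares are descriptions, with no test. Of the 992 genes, IAPP alone passed limma against DMSO in the matching direction in 310 and C4BPD alone in 144. Both passed in 18 and neither in 520. Over all genes, 614 (3.38%) passed for IAPP and 351 (1.93%) for C4BPD. The contrasts share arrays with the main comparison.

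**Figure D5:**
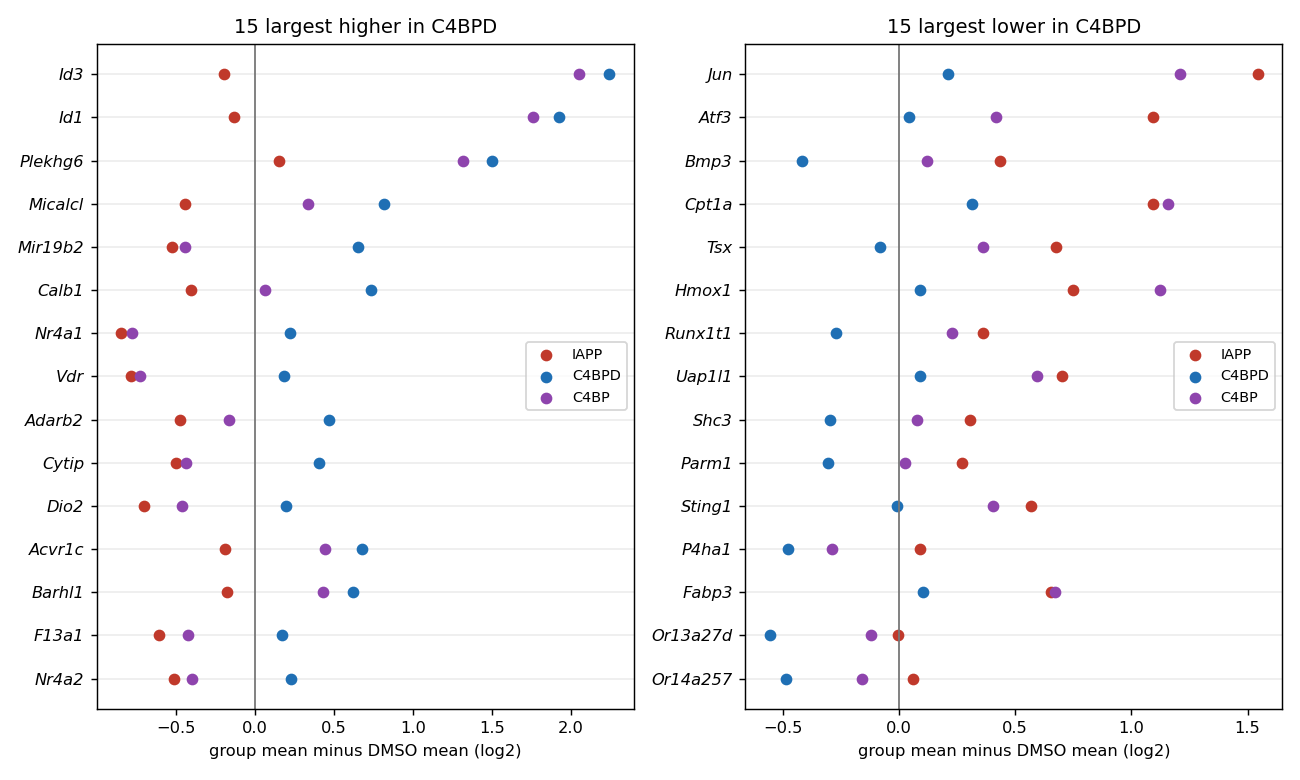
Group mean minus DMSO mean (log2, x) for the 15 genes with the largest positive (left) and the 15 with the largest negative (right) difference, C4BPD minus IAPP, among genes past the threshold; the vertical line is DMSO. Id3, Id1 and Plekhg6 have C4BPD and C4BP far from DMSO and IAPP near it, whereas Nr4a1, Vdr, Jun and Cpt1a have IAPP and C4BP on one side and C4BPD nearer to DMSO.

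The remaining genes with the largest differences are of varied function. Plekhg6 read 327, 333, 363, 333 and 374 in IAPP and 877, 927, 741, 863 and 1001 in C4BPD, a difference of 1.34 ± 0.07 (limma, adjusted p = 3.64e-10), with DMSO at 288 to 369. Micalcl read 138 to 159 in IAPP, 182 to 216 in DMSO and 294 to 398 in C4BPD, and Cytip, an adaptor of cytohesin, 136 to 160, 200 to 225 and 235 to 332. In both the 3 groups did not overlap, and the IAPP arrays lay below the median intensity of the arrays. Barhl1, a homeobox factor, was higher by 0.80 ± 0.06 and F13a1, a coagulation factor subunit, by 0.78 ± 0.08. Mir19b2, a dim probe set annotated to a microRNA gene (51.5 ± 12 in IAPP and 115 ± 13.2 in C4BPD), differed by 1.18 ± 0.18. Among the lower genes, Uap1l1 differed by -0.61 ± 0.04, Sting1, the sensor adaptor of cytosolic DNA, by -0.58 ± 0.06, Parm1 by -0.58 ± 0.05, Runx1t1, a transcriptional corepressor, by -0.63 ± 0.07 and Tsx by -0.76 ± 0.14. Shc3, an adaptor of receptor kinases, differed by -0.60 ± 0.13 with number 1 high in both groups (926 in IAPP and 707 in C4BPD), and its adjusted p of 0.00666 in limma was 6.9e-07 with the block and up to 0.0622 without number 2 or 4. Or13a27d and Or14a257, olfactory receptors at intensities under 50, were also among the 15 largest lower genes, and their calls were lost without single arrays, with adjusted p up to 0.0963 and 0.06. Those arrays were C4BPD 1, 3 and 4 and IAPP 1, 2, 3 and 4 for Or13a27d, and C4BPD 5 and IAPP 2 for Or14a257.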

How the data were processed

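RNA of INS-1 cells was hybridised to 20 Affymetrix Rat Gene 2.0 arrays, 5 in each of 4 title groups. The deposited values are linear intensities, which the authors made with Affymetrix Expression Console per the submitters' processing notes. The sources used here give neither its version nor the normalization and annotation, and any scaling across arrays done there bears on every difference.

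Of 36685 probe sets, 190 were controls, 18511 carried 1 gene symbol in the platform annotation, 575 several and 17599 none. For 291 genes with several probe sets the brightest was kept, which gave 18166 genes. The log2 intensities were not normalized or filtered again (median 7.46). limma 3.58.1 in R 4.3.3 fitted 4 group means to all 20 arrays with empirical Bayes variances, and p-values were two-sided and adjusted by Benjamini-Hochberg over all genes (threshold 0.05). The fit was also run on simulated data whose noise was independent between arrays. That run held no effect of the title number, so it cannot speak for arrays that deviate together by number. No 2 arrays held identical values. Same-numbered C4BPD and IAPP arrays deviated together, with correlations of 0.282, 0.169, 0.152, 0.160 and 0.305, all above the 0.1 set for pairing. Of the 5, 4 correlated best with their own number. Number 4 reached 0.165 with another number, and number 5 reached 0.123 with another, also above 0.1. For C4BPD against IAPP, the fit with the number as a block is given beside the named genes and list counts of the text that it alters. Differences from DMSO that did not pass were not examined with the block. The labels do not say what the number marks.

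Named genes were the 15 largest differences each way past the threshold, up to 4 members of each list by p, the 2 lowest p of a list without calls, every member of the Id, AP-1 and amylin receptor lists, every metallothionein and NR4A gene, and a few fixed genes. The members and lists were chosen with earlier results of these data known. Promoters are from RefSeq (GRCr8), and Jun, Atf3 and Hmox1 were not analysed there.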

Additional observations from a re-analysis of the deposited data

Results flagged for a closer look

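For each of 174 named genes the 5 arrays of each group were compared, and in 26 of 348 sets 1 array stood apart by a gap over Dixon's critical value of 0.71 of the range. Chance alone gives about 1 in 20. Of the 26, 9 were C4BPD replicate 1, in both directions. In that array Dusp8 read 2179 against 1891 to 1931 in the others, Barhl1 1723 against 1463 to 1518, Ins1 7290 against 5534 to 6041, the small MAF protein Mafk 1044 against 799.9 to 839.2, the brain metallothionein Mt3 520 against 398.2 to 419.3 and the AP-1 member Batf 268.6 against 221.3 to 228.8. It was low for Arrdc3 (962.5 against 1063 to 1090), Nfkbiz (311.3 against 353.4 to 364.1) and Snap25 (8715 against 9312 to 9500). Without this array 1006 genes passed, no named gene past the threshold changed direction, and the difference of Mt3, which had not passed, was -0.05 instead of 0.02.

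Of the other C4BPD arrays, replicate 2 was high for Arrdc4 (3711 against 3296 to 3403) and replicate 3 low for Acly (8808 against 9163 to 9299) and Txnip (2545 against 3041 to 3198). Replicate 4 was low for Atoh8 (283.1 against 321.4 to 332.2) and Iars1 (2657 against 2844 to 2906). Replicate 5 was high for Mir19b2 (137.6 against 103.6 to 112.5) and low for Ramp2 (462.8 against 524.6 to 543.6).

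Among the IAPP arrays, replicate 1 was high for Irs2 (1631 against 1440 to 1494), Smad7 (114.7 against 100.8 to 104.7) and the protease gene Mme (117.1 against 87.89 to 96.32) and low for Cd55 (2634 against 2765 to 2803). Replicate 2 was high for the dim Mt4 (97.25 against 89.17 to 90.95). Replicate 4 was low for Dusp6 (382.9 against 433.9 to 453.4) and the protease gene Ece1 (3027 against 3247 to 3306). Replicate 5 was high for Acaca (1467 against 1292 to 1331), Klf5 (1124 against 989.7 to 1016) and Rgs2 (209.1 against 190.3 to 194.4). What set these arrays apart was not tested.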

How the results depend on the processing

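Of the 992 genes, the count was 1529 with array weights, 1908 with the replicate block (1192 higher, 716 lower) and 658 to 1006 without 1 array, lowest without IAPP replicate 2. Without both arrays of a number it was 857, 483, 619, 485 and 566 for numbers 1 to 5. The 662 higher genes became 443 to 633 without 1 array and 343 to 539 without a number, and the 330 lower genes became 215 to 406 and 135 to 318, 642 with array weights and 201 with arrays centred on their median. Grouped by the treatment field, 0 genes passed limma in either direction, with 426 at an unadjusted p under 0.05 against 3308 by title. This grouping and the fit of all 36495 probe sets (825 calls) were run for counts only. The 109 list members became 165 with the block, 84 to 104 without 1 array and 66 to 96 without a number. Quantile normalization, the 2 groups alone, a variance trend and an offset of 50 gave 952, 793, 1142 and 1133 genes, within 1.5 times. Of the 992, 366 passed in all 15 fits that left out an array or a number. Of 116 named genes past the threshold, 68 kept their call in every alternative run that held them, 48 lost it in at least 1, and none changed direction. A run of only the genes brighter than the median probe set did not hold the dim named genes. The block added 7 named calls between C4BPD and IAPP and removed none. The causes were not tested. The number of arrays and dim signals limit the small differences.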
